A study of Danio rerio with 10 samples.

Results

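Wild-type (WT) zebrafish for ebf3a were compared between 2 ages, 2 and 5 days post fertilization (dpf), by bulk RNA-seq. The comparison used every library titled as ebf3a WT, 2 at 2 dpf and 2 at 5 dpf, which were 4 of the 10 libraries of the series. Each 2 dpf library was a pool of 15 to 20 embryos, described in the labels as upper body with the eyes, and each 5 dpf library was a pool of 10 to 12 larvae, described as head with the eyes. By their labels WT fish carried no ebf3a mutation. They came from a line made in the AB background, and received no treatment named in the labels. The other 6 libraries were homozygous ebf3a mutants at both ages, with 2 libraries each, and 2 heterozygous libraries at 2 dpf, from the same tissues and pool sizes. By the labels, age and the tissue taken changed together. A change with age and a change in the part of the body sampled therefore cannot be told apart. The paper describes the anterior part of the body as taken at both ages. The extraction text gives 6 dpf for the pools of 10 to 12 larvae where the titles give 5 dpf, and the titles are followed here. A replicate was a pool, and no label says that the 2 pools of an age came from separate crosses, so p-values measure the spread between these pools, which may be technical.

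Between these ages the zebrafish leaves the chorion and becomes a free-swimming larva that hunts by sight. In the head, many progenitors stop dividing and become neurons, photoreceptors mature and form synapses, lens fibres fill with crystallins, and jaw cartilage and muscle take shape. At the same time genes used for rapid growth and early patterning are generally used less. In RNA from a whole piece of tissue, fewer cells of a type and less RNA per cell cannot be told apart. The gene IDs of the count tables are those of the Lawson Lab transcriptome annotation, and 0 of the 36351 IDs matched a name in the reference tables used here. Genes are therefore described by their values and ranks. No role or sequence could be given to any of them, and marker genes of the labelled tissues were not analysed here.

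The 4 WT libraries held from 38380494 to 47797511 counts, and each detected between 27384 and 28326 genes with at least 1 count. Levels are given as CPM, a gene's counts relative to the library total, scaled between libraries by the trimmed mean of M values (TMM), and 1 CPM stood for 38.4 to 47.8 counts before that scaling. The 2 pools of 2 dpf were much closer to each other than the 2 pools of 5 dpf. The authors also describe their 5 dpf samples as less consistent and their 5 dpf data as of lower quality. The biological coefficient of variation was 6.17% at 2 dpf and 21.7% at 5 dpf, and in the homozygous libraries it was 12.8% and 23.5%. As a plain measure of distance, 2.03% of the reads of a library would have to be moved to other genes to turn one 2 dpf pool into the other. For the 5 dpf pools this was 9.22%, and between a 2 dpf and a 5 dpf pool it was between 33.8% and 36.3%. Both replicate pairs differed by more than sampling noise, with a chi-square per degree of freedom of 7.16 at 2 dpf and 53.4 at 5 dpf. Each library was counted separately, but these values do not show whether the spread was between crosses or technical.

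Most measured genes differed between the ages. Of 24140 genes with enough counts to be tested, 8561 (35.5%) were higher and 7514 (31.1%) were lower at 5 dpf at an adjusted p under 0.05 (edgeR quasi-likelihood test, Benjamini-Hochberg over all genes tested). A test against a 2-fold change called 4951 genes (20.5%) higher and 2781 (11.5%) lower by more than 2-fold. Rises were larger than falls. The median log2 fold change of the genes called higher was 1.93, with quartiles of 1.13 and 3.32, and the median size of the falls was 1.15, with quartiles of 0.77 and 1.66. The fitted fold of a gene with 0 counts in both pools of an age depends on the fit, which touched 271 of the rises and 85 of the falls. With those genes set to the bound that 3 counts per library allow, the medians were 1.93 and 1.15, and 832 genes rose and 83 fell by at least 5 on the log2 scale. The 4 libraries did not overlap between the ages for 85.4% of the genes tested, which includes all 16075 called genes and another 4547 that did not pass.

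Scaling set the balance of rises and falls within a limited range. The median log2 fold change over all genes tested was 0.12 with TMM scaling and 0.32 with library totals alone, and it lay between 0.06 and 0.32 over the 4 scalings tried. Of the genes called, 53.3% were higher at 5 dpf with TMM, and from 51.4% to 60.8% under the other scalings. Of the genes beyond 2-fold, 64.0% were higher with TMM and from 61.6% to 74.0% under the other scalings, with 5627 higher and 1978 lower when library totals alone were used. No gene called with TMM turned its direction in any of those fits.

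**Figure D1:**
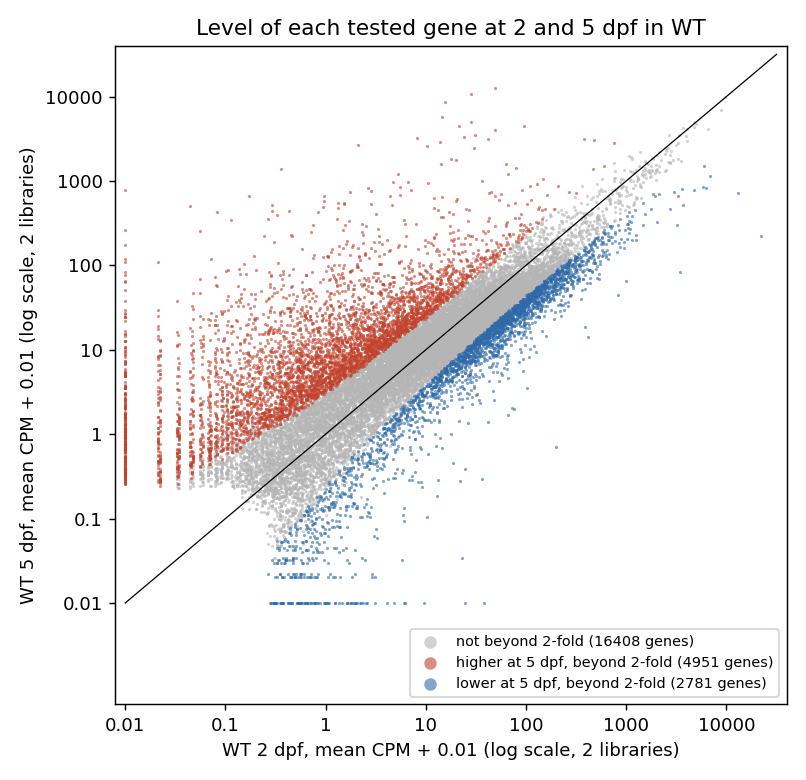
Each point is 1 of the 24140 genes tested, with its mean CPM in the 2 WT libraries of 2 dpf on the x axis and of 5 dpf on the y axis, both on a log scale after adding 0.01. The 4951 genes higher by more than 2-fold (red) spread widely from low levels at 2 dpf, while the 2781 lower genes (blue) lie in a narrower band at higher 2 dpf levels; the black line marks equal levels.

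Rises and falls came from different ranges of abundance. Genes that rose by more than 2-fold had a median level of 0.895 CPM at 2 dpf and 8.66 CPM at 5 dpf, and 2570 of them (51.9%) were under 1 CPM at 2 dpf. Genes that fell by more than 2-fold started at a median of 42.3 CPM and ended at 12.4 CPM, and only 575 of them (20.7%) were under 1 CPM at 5 dpf. Of the 2048 falling genes with at least 10 CPM at 2 dpf, most were still well read at 5 dpf, where 1515 of the falling genes had at least 10 CPM. Just over 50% of the rises were thus of genes under 1 CPM at 2 dpf, and most falls were of genes at 1 CPM or more at 5 dpf. The level at 2 dpf is part of the fold change that chose both sets. That choice favours low 2 dpf levels among rises and high ones among falls. Genes with few counts at both ages were not tested, which also favours rises among genes little read at 2 dpf. The part of this selection in the contrast was not tested. Over all genes tested, the median level was 6.59 CPM at 2 dpf and 9.54 CPM at 5 dpf.

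With TMM scaling, the only scaling read by class, the share of called genes by direction turned over with abundance. How other scalings move this split was not tested. Among the 8435 genes with a mean of 1 to 10 CPM over the 4 libraries, 46.9% were called higher and 16.4% lower at 5 dpf. Among the 1534 genes of 100 to 1000 CPM, 21.6% were called higher and 64.7% lower. The 128 genes over 1000 CPM followed with 21.1% higher and 50% lower, of which equal numbers, 20 each, passed the 2-fold test. Of the 4089 genes under 1 CPM, on which counting error weighs most, 32.3% were called higher and 15.7% lower.

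**Figure D2:**
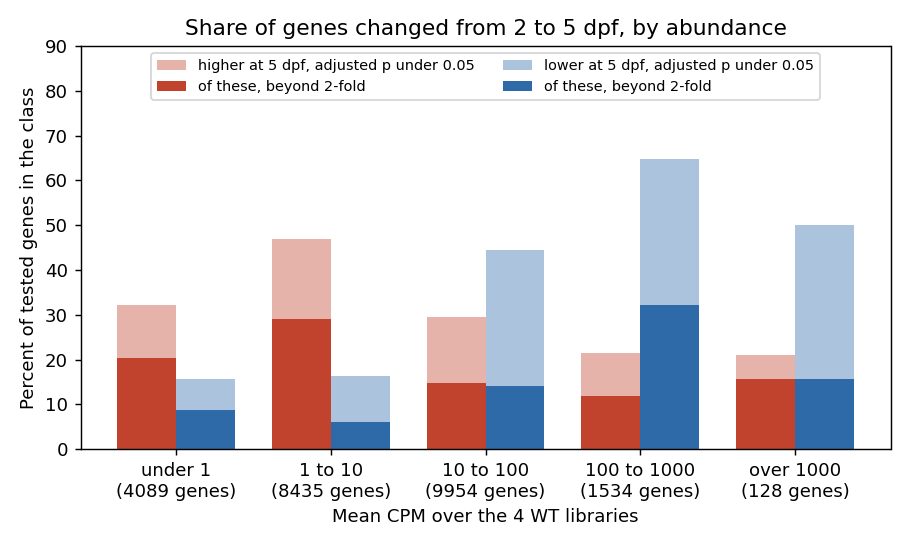
Bars give the percent of tested genes called higher (red) or lower (blue) at 5 dpf within 5 classes of mean CPM over the 4 WT libraries, with the darker part showing genes beyond 2-fold. With TMM scaling, higher calls lead under 10 CPM (46.9% against 16.4% at 1 to 10 CPM). Lower calls lead above it (64.7% against 21.6% at 100 to 1000 CPM).

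The changed genes took up a large part of each library. The genes called higher held 8.86% and 8.81% of the counts in the 2 pools of 2 dpf, and 39.0% and 41.4% in the 2 pools of 5 dpf. The genes called lower held 69.2% in both pools of 2 dpf, and 35.9% and 33.7% at 5 dpf. Reads thus moved from a large block of 2 dpf genes to genes that took under 9% of the reads at that age. The genes not called held 21.9% in both pools of 2 dpf, and 25.01% and 24.8% at 5 dpf. These shares describe genes chosen on the same libraries and carry no test.

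A small number of genes carried much of the gain. The 10 genes with the largest gain in mean CPM made up 22.1% of the summed gain of all genes called higher, and the 100 largest made up 50.7%. As shares of their own sum the losses were spread more widely, with 16.3% in the 10 largest and 35.2% in the 100 largest. The sums differed, at 280103 CPM for the genes called higher and -418484 CPM for those called lower. In TMM-scaled CPM the 10 largest losses summed to -68292 and the 10 largest gains to 61925. The scaling factors were 0.939 and 0.925 at 2 dpf and 1.06 and 1.08 at 5 dpf. Division by these factors raises 2 dpf levels relative to 5 dpf levels and so enlarges losses against gains. Which sums are larger therefore depends on the scaling, and no order is read from them.

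The largest gain was that of LL0000000222. It was read at 46.7 and 51.0 CPM in the 2 pools of 2 dpf and at 10410 and 14685 CPM in the 2 pools of 5 dpf. It went from rank 3974 to rank 1 by reads, a log2 fold change of 8.01 (SE 0.23, edgeR adjusted p = 5.98e-06). Both 5 dpf pools were far above both 2 dpf pools, and the 5 dpf pools differed from each other more than the 2 dpf pools did.

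LL0000022946 had the second largest gain, from 27.3 and 29.2 CPM at 2 dpf to 10758 and 10549 CPM at 5 dpf. It moved from rank 6097 to rank 2, with a log2 fold change of 8.56 (SE 0.14, edgeR adjusted p = 3.1e-06). Replicates were nearly equal at both ages. The gene with the next ID number behaved alike, with 14.6 and 16.3 CPM at 2 dpf and 8713 and 8305 CPM at 5 dpf, which made it the fourth most read gene at 5 dpf. Neighbouring, near-identical copies can share reads, and how the counting treated such reads is not stated, so the split between these genes is uncertain.

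The largest loss was that of LL0000020031, the most read gene at 2 dpf. Its levels were 23199 and 21342 CPM at 2 dpf and 258 and 183 CPM at 5 dpf, where it ranked 526. The log2 fold change was -6.66 (SE 0.22, edgeR adjusted p = 7.21e-06). At 2 dpf this single gene held 2.18% and 1.97% of all counts. Both 5 dpf pools were far below both 2 dpf pools, though the gene was still among the more read genes of 5 dpf.

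LL0000006421, the second most read gene at 2 dpf, fell from 12800 and 13074 CPM to 794 and 631 CPM. It dropped to rank 168, with a log2 fold change of -4.18 (SE 0.15, edgeR adjusted p = 9.28e-06). Not every abundant gene moved. The gene ranked 3 at both ages had 9666 and 9831 CPM at 2 dpf and 9275 and 10220 CPM at 5 dpf, a log2 fold change of 1.4e-05 (SE 0.10). Replicates could also disagree, as for the gene with the eighth largest loss, which had 1734 and 5073 CPM in the 2 pools of 2 dpf and 71.6 and 93.8 CPM at 5 dpf. Both of its 2 dpf pools were still far above both 5 dpf pools.

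The list of the 20 most read genes lost more genes than it kept, while most of the longer lists was shared between the ages. Ranks here are by reads, which depend on gene length as well as on the number of transcripts. Of the 20 most read genes, 9 were shared between the ages, while replicate pools shared 19 at 2 dpf and 17 at 5 dpf. Each single pool of 2 dpf shared 9 with each single pool of 5 dpf. Of the 100 most read genes 61 were shared between the ages, and of the 1000 most read genes 568 were. Replicate pools shared 98 of the 100 at 2 dpf and 92 at 5 dpf, and 986 and 886 of the 1000. At each depth of the list, pools of 1 age shared more genes than the ages did.

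The 11 genes in the top 20 at 2 dpf only were all called lower at 5 dpf, and 9 of them were lower by more than 2-fold. They ranged from 3426 to 23199 CPM in the 2 dpf libraries and from 183 to 3073 CPM in the 5 dpf libraries, and their 5 dpf ranks were between 26 and 526. Together they held 7.54% and 7.34% of the counts at 2 dpf and 1.43% and 1.14% at 5 dpf. Even the strongest of these falls left the gene well above most others.

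The 11 genes in the top 20 at 5 dpf only split into separate kinds. For 9 of them the rise was called and beyond 2-fold, and these came from far down the list, between rank 2009 and rank 9011 at 2 dpf. Their levels were 12.2 to 98.1 CPM in the 2 dpf libraries and 2977 to 14685 CPM in the 5 dpf libraries, with log2 fold changes between 5.57 and 9.11. They rose from 0.0298% and 0.0321% of all counts to 5.88% and 6.78%. The other 2 were not called, and 1 of them had ranked 22 at 2 dpf. The lists were chosen by level at 1 age, which favours falls in the first and rises in the second.

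The 9 genes in both lists changed little, with log2 fold changes from -0.66 to 0.21. Of these, 2 were called lower and none was called higher or passed the 2-fold test. Together they held between 4.77% and 5.05% of the counts in each of the 4 libraries.

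**Figure D3:**
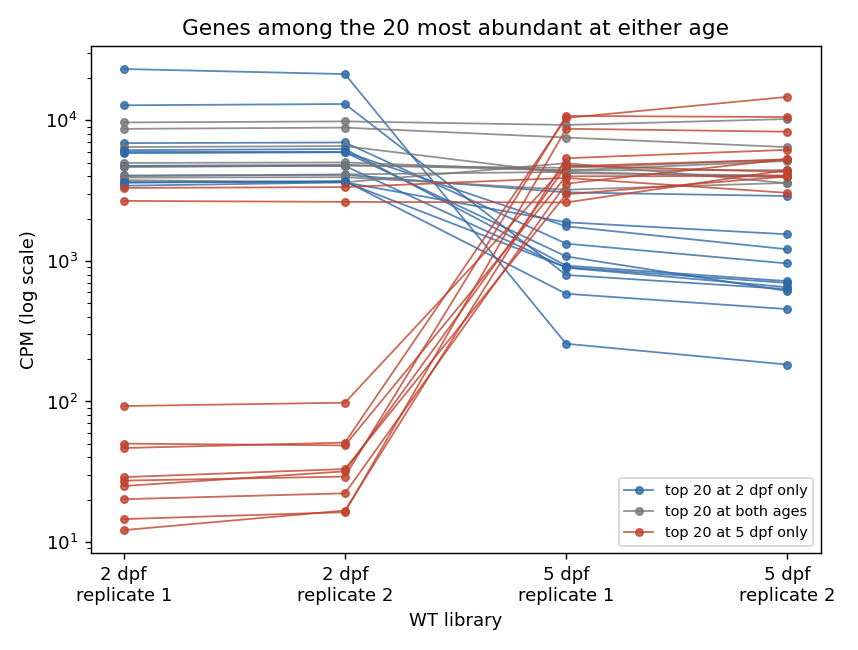
Lines join the CPM (log scale) of each gene among the 20 most read at either age over the 4 WT libraries. Genes in the 2 dpf list only (blue) fell to between 183 and 3073 CPM, genes in both lists (grey) had log2 fold changes from -0.66 to 0.21, and 9 of the 11 genes in the 5 dpf list only (red) rose from under 100 CPM to at least 2977 CPM.

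Many genes went from near absence to clear reading, and few went the other way. A gene was taken as switched on when it was under 0.1 CPM in both pools of 2 dpf and at least 1 CPM in both pools of 5 dpf, and as switched off in the reverse case. By this rule 337 genes were switched on and 53 switched off. The counts of genes depend on the rule and on which libraries must meet it, and without replicate 2 of WT 2 dpf the rule took 522 genes as switched on. All of the genes so chosen were also called by the test, as the rule makes likely. Across the whole table, 17731 genes were at 1 CPM or more in both pools of 2 dpf and 19776 in both pools of 5 dpf, and 16965 in all 4.

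Most switched-on genes were read at modest levels at 5 dpf. Their mean levels ran from 1.05 to 786 CPM with a median of 3.58 CPM. There were 79 with at least 10 CPM, 8 with at least 100 CPM and 2 with at least 500 CPM. Together they rose from 0.000989% and 0.000795% of all counts at 2 dpf to 0.459% and 0.613% at 5 dpf. They were thus many in number and small in their share of reads. Of the 337 genes, 110 had 0 counts in both pools of 2 dpf. There 3 counts, the limit that a count of 0 allows, would be 0.0708 CPM on average.

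The switched-on gene with the highest level had 0 counts in both pools of 2 dpf and 22411 and 50849 counts in the pools of 5 dpf. These were 549 and 1023 CPM, at least 11095-fold higher than the floor of 3 counts in each 2 dpf library. The next gene had 0 and 3 counts at 2 dpf and 354 and 666 CPM at 5 dpf. The third had 0 counts in both pools of 2 dpf and 214 and 306 CPM at 5 dpf, at least 3676-fold higher. In all 3 genes replicate 2 of 5 dpf was above replicate 1. The fourth, with 278 and 239 CPM, went the other way.

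The switched-off genes were fewer and lower. Their mean level at 2 dpf ran from 1.05 to 38.4 CPM with a median of 1.96 CPM, and 3 had at least 10 CPM. Together they held 0.0191% and 0.0195% of the counts at 2 dpf. The highest had 1517 and 1743 counts in the pools of 2 dpf and 0 in both pools of 5 dpf, at least 573-fold lower. The next had 918 and 1198 counts at 2 dpf and 0 in both pools at 5 dpf, at least 371-fold lower. Of the 53 genes, 26 had 0 counts in both pools of 5 dpf, where 3 counts would be 0.0669 CPM on average.

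The switched-on and switched-off genes were also read in the other libraries of the series, which the rule did not use. Of the 337 switched-on genes, 276 were at 1 CPM or more in both homozygous pools of 5 dpf. In all 6 libraries of 2 dpf, which include the WT pools that the rule used, 146 of the 337 were under 0.1 CPM. The genes were chosen for low levels in the WT pools of 2 dpf, which favours higher levels in the other libraries of that age. Scaled over all 10 libraries, their summed level was 10.3 and 8.35 CPM in the WT pools of 2 dpf. In the homozygous pools of 2 dpf it was 21.7 and 23.4 CPM. The homozygous and heterozygous libraries of 2 dpf were also shallower, at 30070283 to 34661012 counts. There 3 counts were 0.0866 to 0.0998 CPM before scaling, so 0.1 CPM was a limit of few counts. The part of depth in the 146 was not tested. Of the 53 switched-off genes, 44 were under 0.1 CPM in both homozygous pools of 5 dpf. In all 6 libraries of 2 dpf, again with the WT pools that the rule used, 35 of the 53 were at 1 CPM or more. The full rule was met in the homozygous libraries by 153 of the 337 and 33 of the 53. The share of all genes that met each of these limits in those libraries was not worked out. These counts are therefore a description, and no agreement between libraries is read from them. In WT, 19776 of all 36351 genes were at 1 CPM or more in both pools of 5 dpf.

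The level of the switched-on genes varied between 5 dpf pools. Their summed level was 4326 and 5607 CPM in the WT pools of 5 dpf and 2983 and 7678 CPM in the homozygous pools, scaled over all 10 libraries. In the WT pools 57.9% of them were higher in replicate 2, against 48.2% of all genes tested. In the homozygous pools 78.3% were higher in replicate 2, against 46.3% of all genes tested. The pools of 5 dpf thus differed in the amount of these genes, and what moves with that difference was not tested.

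**Figure D4:**
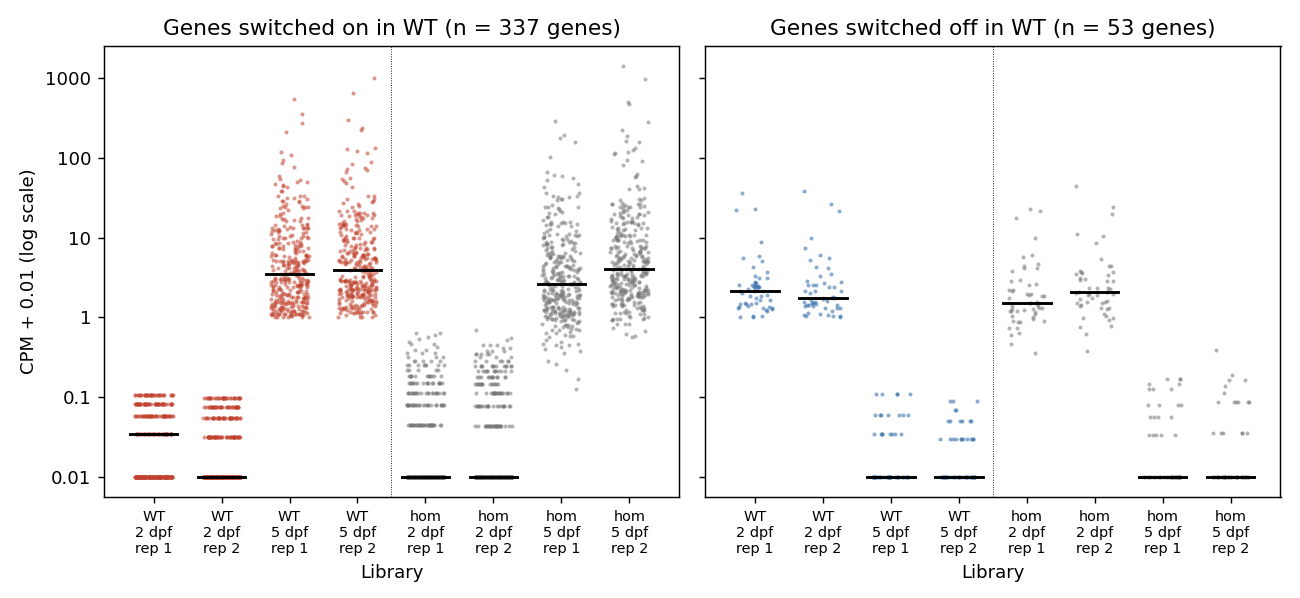
Points are genes switched on (left, 337 genes) or off (right, 53 genes) in WT, with their CPM plus 0.01 on a log scale in the 4 WT libraries and, in grey, the 4 homozygous (hom) libraries; black bars are medians over genes. The rule used the WT libraries only, and 276 of the 337 switched-on genes were at 1 CPM or more in both homozygous 5 dpf libraries. The share of all genes at that level in those libraries was not worked out.

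The homozygous libraries were not used to call genes in WT and share no library with that comparison, so the change with age could be read again in them. They carry the ebf3a mutation and differ in tissue between the ages in the same way. Fitted alone, they gave 7723 genes (33.1%) higher and 6748 (28.9%) lower at 5 dpf among 23358 tested (edgeR, adjusted p under 0.05). Of the genes called higher in WT, 8305 were tested in the homozygous libraries, where 7115 (85.7%) were called higher and 0 were called lower. Of the genes called lower in WT, 7314 were tested, where 6256 (85.5%) were called lower and 0 were called higher. The direction of the estimate was the same for 99.7% of the genes in both sets. The WT and homozygous pools may not be independent. At 5 dpf, replicates with the same number deviated together in the 2 genotypes (correlation of replicate differences 0.46). Whether pools of the 2 genotypes came from the same crosses is not given in the labels.

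The size of the change was close as well. The genes called higher in WT had a median log2 fold change of 1.88 in WT and 1.81 in the homozygous libraries. The genes called lower had medians of -1.12 and -1.03. With genes at 0 counts set to their bounds these medians were 1.88, 1.81, -1.12 and -1.03. Genes beyond 2-fold in WT were called in the same direction in 95.7% of rises and 97.7% of falls. The homozygous pools of the 2 ages did not overlap, in the direction seen in WT, for 97.3% of the WT rises and 96.1% of the WT falls. Over all genes tested, homozygous pools did not overlap in 45.7% with 5 dpf higher and 37.1% with 5 dpf lower. Over 23128 genes the log2 fold changes of WT and homozygous libraries had a Pearson correlation of 0.94 and a Spearman correlation of 0.96, as a description across genes, which are not independent and share the same ages, tissues and counting.

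**Figure D5:**
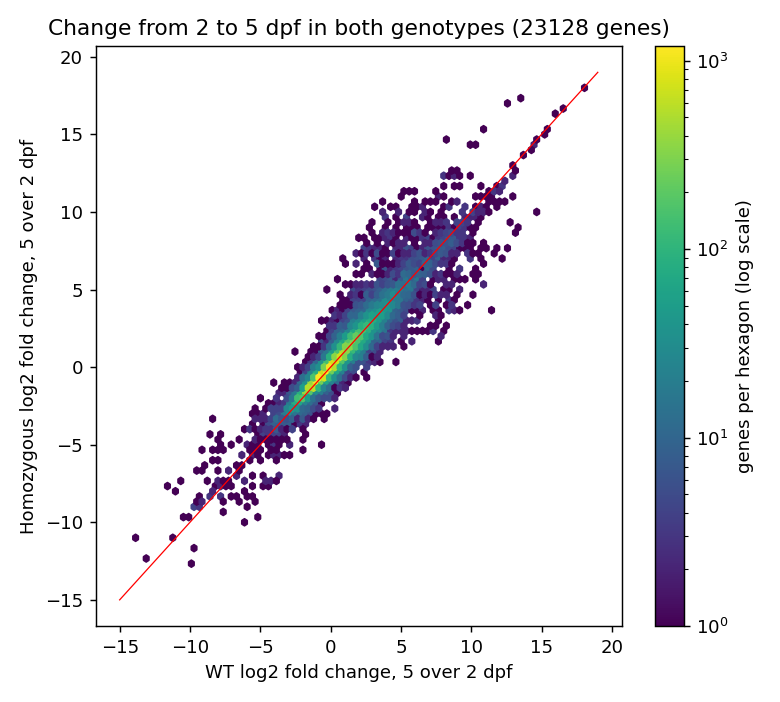
Hexagons count genes (colour, log scale) by their log2 fold change from 2 to 5 dpf in WT (x axis) and in homozygous ebf3a libraries (y axis), over 23128 genes tested in both, with fitted values that are no bound for genes at 0 counts at 1 age. The red line marks equal changes, and most genes lie along it, with medians of 1.88 and 1.81 for the genes called higher in WT.

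Whether the change with age differed between genotypes was tested by an interaction term over the 8 WT and homozygous libraries. Of 24823 genes tested, 0 (0%) passed an adjusted p under 0.05 with edgeR, and 941 had an unadjusted p under 0.05. These 941 were fewer than a share of 0.05, which no difference would give on average. With the replicate number as a block within each age, edgeR called 3 genes. In that fit 2063 genes had an unadjusted p under 0.05, which was more than that share. No label says that a replicate number marks a shared cross or day. DESeq2 called 4 genes in the same libraries, and edgeR called 17 when replicate 2 of WT 5 dpf was left out. The median size of the estimated difference between genotypes was 0.23 on the log2 scale, and for 1 gene in 10 it was over 1.15. With 2 pools per group and the spread at 5 dpf, a miss of the threshold does not show that the changes were alike.

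Both 5 dpf WT pools stood far from the 2 dpf pools, and replicate 2 stood slightly farther. Over the 7723 genes called higher in the homozygous libraries, the median log2 difference from the 2 dpf WT mean was 1.38 in replicate 1 and 1.52 in replicate 2. Over the 6748 genes called lower there, it was -1.02 and -1.11. Of the first set 58.2% were higher in replicate 2 than in replicate 1, and of the second set 64.6% were lower. Of all genes tested, 48.2% were higher in replicate 2. The 2 pools of 2 dpf showed no such order, with medians of 0 and 0.01 for replicate 2 minus replicate 1. Both sets were chosen in the homozygous libraries, whose 5 dpf replicates deviated together with WT replicates of the same number (correlation 0.46). What set the pools of 5 dpf apart was not tested.

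Genes with neighbouring IDs often moved together. Of 24139 pairs of neighbours in the list of genes tested, 16.2% were both called higher and 12.9% both called lower. The products of the shares called would give 12.6% and 9.69%. Pairs called in opposite directions made up 16.4%, where the product would give 22.1%. For 19517 pairs with consecutive ID numbers, 31.0% were called in the same direction. Runs of at least 5 neighbours, all beyond 2-fold in the same direction, numbered 71 for rises, with 431 genes, and 13 for falls, with 72 genes. Of all genes tested, 20.5% were higher and 11.5% lower beyond 2-fold, which by itself favours more and longer runs of rises. No expected number of runs was worked out.

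The longest such run held 12 genes with consecutive IDs, whose summed level rose from 20.3 and 21.4 CPM at 2 dpf to 683 and 857 CPM at 5 dpf. In the homozygous libraries the sum of these genes was 21.3 and 19.7 CPM at 2 dpf and 452 and 670 CPM at 5 dpf. The next longest run held 11 genes, which rose from 21.86 and 21.97 CPM to 4777 and 3968 CPM. The smallest rise among its members was 1.40 on the log2 scale. The longest runs of falls held 7 genes each. Neighbours in ID may be overlapping genes or near-identical copies, and whether counting used the strand is not given in the sources used here, so reads shared between neighbours cannot be told apart from joint changes.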

How the data were processed

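RNA from pooled WT, heterozygous and homozygous ebf3a zebrafish was sequenced as paired-end reads. The authors' alignment used STAR, GRCz11 and the Lawson Lab annotation. The deposited values are unnormalized read counts per gene, 1 table per library. The submitters' processing notes name STAR 2.7.3a and DESeq2, while the paper gives another version of STAR. The strand setting and the treatment of multi-mapped reads are not given in the sources used here.

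The 4 WT libraries were scaled by TMM, filtered by filterByExpr and fitted with edgeR 4.0.16 (limma 3.58.1, R 4.3.3), using its quasi-likelihood test and Benjamini-Hochberg adjustment over all genes tested. The threshold was an adjusted p of 0.05, and glmTreat tested against a log2 fold change of 1. The genes tested held 99.96% of the WT counts. Standard errors were derived from the test, as the size of the log2 fold change over the square root of its F statistic. Single-library differences used log2 of CPM plus 0.5. Limits from a count of 0 used 3 counts and cover counting error only. Totals of 38380494 to 47797511 counts per WT library set the precision of low levels. Homozygous libraries were fitted alone, and the genotype by age interaction over 8 libraries. The test was tested on simulated data.

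The alternatives were other scalings and filters, all 10 libraries in the fit, the replicate number as a block, DESeq2 1.42.0, limma-voom, other levels for switched-on and switched-off genes, and leaving out each library. DESeq2 for the interaction and voom with a weight per age were chosen after seeing the data. Since IDs had no names, the rule for named genes was the 2 called genes with the largest gain and the 2 with the largest loss in mean CPM with no overlap between ages. Other genes are given by value. Planned gene lists and tissue markers, which need names, were not used. The comparison, rules and alternatives were chosen with earlier results of these data known.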

Additional observations from a re-analysis of the deposited data

How the results depend on the processing

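The count of genes called between the ages was 16075, and between 14161 and 16421 under the alternatives that kept all 4 WT libraries. DESeq2 gave 15184 and limma-voom 16105. Leaving out a 5 dpf pool raised the count, and leaving out a 2 dpf pool lowered it. The spread was then estimated from the 2 pools of the other age. The biological coefficient of variation was 6.17% at 2 dpf and 21.7% at 5 dpf, so these counts do not measure stability. Calls beyond 2-fold numbered 7732, and moved in the same directions with 1 library left out. The 4 named genes kept their direction and passed the threshold in all settings fitted for them with edgeR. Between ages, replicates with the same number did not deviate together (correlation of replicate differences -0.02), and the replicate block gave 16236 calls and 7867 beyond 2-fold. For the 5 dpf pools, WT and homozygous replicates with the same number deviated together (correlation 0.46), and at 2 dpf they did not (-0.01). No label says that a number marks a shared cross or day. For the interaction of genotype and age, the replicate block gave 3 genes and DESeq2 gave 4, against 0 with edgeR, and leaving out 1 library gave 0 to 17, with 17 without replicate 2 of WT 5 dpf. The cause was not tested. Switched-on genes numbered 337, but 110 with 0 counts required at 2 dpf and 121 with at least 5 CPM required at 5 dpf. With limits of 0.5 and 5 CPM they numbered 398. With 1 library left out they numbered 382 to 522, since fewer libraries had to meet the rule. Switched-off genes numbered 53, but 26 with 0 counts required at 5 dpf, 6 with at least 5 CPM required at 2 dpf, 23 with limits of 0.5 and 5 CPM, and 66 to 76 with 1 library left out. Of 860 genes that were not called with a log2 fold change beyond 1 in size, 752 had a mean under 1 CPM, and the parts of depth and of the spread between pools in this were not tested.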
